A study of Mus musculus with 5 samples.

Results

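A set of 8 growth, survival and eye-development genes was examined for *Paupar* occupancy: *Mst1*, *Gas6*, *Tgfb3*, *Igfbp5*, *Ctnnb1*, *Bcl2*, *Mitf* and *Mab21l2*. They were taken from the genes that the study named beside its CHART sites and amplified by qPCR, and all 8 were found among the 22380 protein-coding genes of the NCBIM37 annotation. The primers were listed for CHART and for chromatin immunoprecipitation (ChIP) together. The study calls the sites of its CHART-qPCR candidate binding sites. It measured PAX6 by ChIP at *Paupar* sites in regulatory regions of genes that changed upon *Paupar* knockdown. For both assays a peak at a gene may be a condition of the choice, and for ChIP so may a change in expression. Such a peak is not taken as independent evidence about the gene. Of the 2849 deposited peaks, 11 lay in the regulatory domains of these genes.

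*Paupar* is a long non-coding RNA transcribed upstream of *Pax6*, and CHART-Seq sequences the DNA recovered with an RNA that is captured from crosslinked chromatin by complementary biotinylated oligonucleotides. The cells were N2A, a mouse neuroblastoma line, with no other treatment named for these libraries. The libraries were 2 from *Paupar* capture, 2 from capture with a non-targeting *LacZ* oligonucleotide and 1 of input DNA, and the peaks were those found against both the *LacZ* control and input. The deposited list joins the libraries, with 1 score per position. How the calls of the 2 *Paupar* libraries were joined is not stated in the methods. Whether a peak was called in 1 or in both is therefore unknown. There are no values per library, no replicate error and no known depth, so the values are described without tests. The qPCR values themselves were not analysed here.

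The genes belong to pathways that decide whether cells divide, live or differentiate. TGF-beta 3, GAS6 and MST1 are secreted ligands that act through serine-threonine kinase or tyrosine kinase receptors, IGFBP5 binds insulin-like growth factors outside the cell, beta-catenin carries the canonical Wnt signal into the nucleus and BCL2 holds back mitochondrial apoptosis. MITF, the regulator of melanocytes and the retinal pigment epithelium, and MAB21L2, which is needed for eye development, belong like PAX6 to the biology of the developing eye.

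The amplicons of the qPCR assay show which stretch of each locus was probed. The primers were placed on the genome by exact match, and each matched at a single position. Of the 8, 6 are printed on the plus strand of mm9 (NCBIM37), with the primer sites in capitals, because they hold a feature described later: the peak with the lowest score (*Mitf*), the only promoter (*Mst1*), a repeat (*Mab21l2*), stretches close to a PAX6 site (*Igfbp5* and *Ctnnb1*) and a fragment outside any peak (*Gas6*). In the same order they lay at chr6:97669515-97669592, chr9:107982616-107982771, chr3:86313659-86313747, chr1:73010414-73010600, chr9:120687230-120687308 and chr8:13592274-13592497.
Mitf: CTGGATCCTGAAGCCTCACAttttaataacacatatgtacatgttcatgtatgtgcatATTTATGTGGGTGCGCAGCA
Mst1: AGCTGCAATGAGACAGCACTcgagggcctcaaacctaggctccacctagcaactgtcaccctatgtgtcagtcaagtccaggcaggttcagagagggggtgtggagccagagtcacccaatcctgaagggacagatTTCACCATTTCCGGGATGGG
Mab21l2: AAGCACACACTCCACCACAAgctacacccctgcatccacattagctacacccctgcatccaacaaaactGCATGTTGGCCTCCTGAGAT
Igfbp5: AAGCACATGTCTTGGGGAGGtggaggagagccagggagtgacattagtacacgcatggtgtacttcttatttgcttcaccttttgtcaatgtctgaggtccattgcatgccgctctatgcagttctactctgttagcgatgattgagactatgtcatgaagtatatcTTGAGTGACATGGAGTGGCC
Ctnnb1: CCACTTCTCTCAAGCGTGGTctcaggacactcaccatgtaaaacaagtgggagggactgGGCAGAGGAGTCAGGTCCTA
Gas6: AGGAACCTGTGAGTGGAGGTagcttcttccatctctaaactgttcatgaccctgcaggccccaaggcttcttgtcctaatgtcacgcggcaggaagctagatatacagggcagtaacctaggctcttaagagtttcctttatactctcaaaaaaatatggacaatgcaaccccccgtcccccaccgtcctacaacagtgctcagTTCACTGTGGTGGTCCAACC

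A peak was assigned to a gene when its midpoint lay in the regulatory domain. This is an interval reaching 5 kb before and 1 kb past the start. On either side it was lengthened to such an interval of the next protein-coding gene in order of gene start, by at most 1 Mb. By this rule 7 of the 8 genes had a peak, and *Gas6* had none. The count was 4 with extension of at most 100 kb, when *Bcl2*, *Tgfb3* and *Ctnnb1* had no peak either, and 3 with domains ended by genes of any biotype, when *Mitf* was without one as well. *Mst1*, *Igfbp5*, *Tgfb3*, *Bcl2* and *Mitf* had 1 peak each, and *Ctnnb1* and *Mab21l2* had 3 each. Over all protein-coding genes, 3699 (16.5%, 95% Wilson interval 16.0 to 17.0) had at least 1 peak in their domain and 372 (1.66%) had at least 3. Nothing is read from the difference, since the study named these genes beside its CHART sites.

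**Figure D1:**
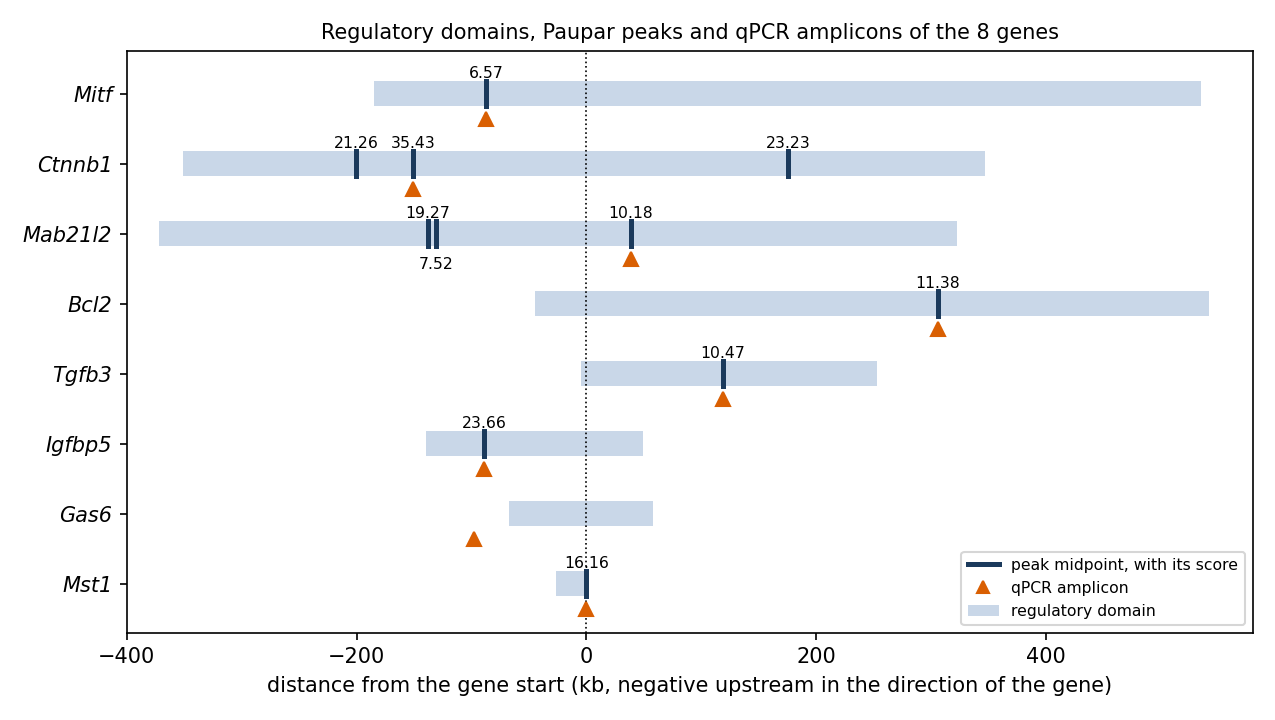
Regulatory domains of the 8 genes (bars, x axis in kb from the gene start, negative upstream in the direction of the gene), with the midpoint and score of each peak (dark lines) and the position of the qPCR amplicon (triangles). Peaks stood on both sides of the gene starts, *Mst1* alone had a peak at its start, and the *Gas6* amplicon lay outside the *Gas6* domain.

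Among the ligands, *Mst1*, which encodes macrophage-stimulating protein, the ligand of the receptor tyrosine kinase RON, had its peak at the start of the gene. This peak (chr9:107982497-107982910, 414 bp) had a score of 16.16 and rank 945 among the 2849 peaks. Its midpoint lay 64 bp upstream of the start, in an intron of the overlapping gene *Rnf123* (a ubiquitin ligase), and it reached 144 bp into *Mst1*. It was the only one of the 11 peaks within 1 kb of the gene start, a count given without a share over all pairs of a gene and a peak. Counted by gene, *Mst1* alone of the 8 had a peak midpoint that close, beside 224 of all protein-coding genes (1.0%). *Mst1* was the nearest gene start, followed by that of *Rnf123* at 2974 bp. The *Mst1* domain was the shortest of the 8 at 28.2 kb, and under the domain rule used no other gene's domain held the peak.

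*Tgfb3*, which encodes a TGF-beta ligand, had a peak 119 kb downstream of its start. The peak (chr12:87300592-87301123, 532 bp) had a score of 10.47 and rank 1876, and lay in an intron of *Ttll5*, a tubulin glutamylase gene whose domain also held it. *Tgfb3* was the nearest gene start, with that of *1700019E19Rik* 122656 bp away. Which peak belongs to *Tgfb3* depends on how the neighbour is found. Here neighbours were taken in the order of their gene starts. When every nearby interval was allowed to end the domain, *1700019E19Rik* closed it on the downstream side and left *Tgfb3* with a different peak (chr12:87575524-87575973), of score 14.21 and 156 kb upstream of its start.

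*Gas6*, which encodes the ligand of the TAM receptors TYRO3, AXL and MERTK, had no peak in its domain of 125 kb. The nearest one upstream (chr8:13642960-13644591, 1632 bp) lay 149 kb from the start in an intron of *Rasa3*, a gene for a Ras GTPase-activating protein, and had a score of 36.54 and rank 162. Its midpoint belonged to the domains of *Rasa3* and *1700029H14Rik*. The nearest peak downstream was 1360 kb away, and its score of 135.15 was the third of the whole list.

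*Igfbp5*, whose product binds insulin-like growth factors and tunes their access to the receptor, had a peak 89.1 kb upstream of its start. The peak (chr1:73010268-73010946, 679 bp) was intergenic, with a score of 23.66 and rank 442. The start of *Tnp1*, a spermatid nuclear protein gene whose domain also held the peak, was closer at 51866 bp.

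*Ctnnb1*, which encodes beta-catenin, had the highest score and the widest peaks of the 8 genes. The peak with the qPCR amplicon (chr9:120686529-120688686, 2158 bp) lay 151 kb upstream of the start in intergenic sequence, with a score of 35.43 and rank 168. A narrower intergenic peak (chr9:120637451-120637920, 470 bp) lay 201 kb upstream with a score of 21.26, and its midpoint was 49.9 kb from that of the first. The third (chr9:121012821-121015341, 2521 bp) lay 176 kb downstream in an intron of *Ulk4*, a gene of the unc-51-like kinase family, with a score of 23.23. For the 470-bp peak *Ctnnb1* was the fourth nearest gene start, and only for the 2158-bp peak was it the nearest.

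*Bcl2*, which encodes the founding anti-apoptotic protein of its family, had the most distant peak, 306 kb downstream of the start. This intergenic peak (chr1:108304548-108304991, 444 bp) had a score of 11.38 and rank 1668. It lay closer, at 236440 bp, to the start of *Phlpp1*, which encodes a phosphatase that acts on AKT, and the domains of both genes held it.

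*Mitf* had the lowest score and the narrowest peak. The peak (chr6:97669440-97669642, 203 bp) lay 87.5 kb upstream in intergenic sequence with a score of 6.57 and rank 2790, so that 2.11% of all peaks had a score no higher and 2.39% were no wider. *Mitf* was the nearest gene start, followed by *Frmd4b* at 102006 bp, whose domain also held the peak.

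*Mab21l2*, which lies within *Lrba*, a large gene for a vesicle trafficking protein, had all 3 of its peaks in *Lrba* introns. The amplified one (chr3:86313588-86313887, 300 bp) lay 38.5 kb downstream with a score of 10.18 and rank 1963. The others lay upstream, 7.28 kb apart from midpoint to midpoint. The nearer (chr3:86482963-86483374, 412 bp, 131 kb) had a score of 7.52 and the farther (chr3:86490205-86490699, 495 bp, 138 kb) a score of 19.27. *Mab21l2* was the nearest gene start for all 3, and the peak chosen for qPCR was the closest to the gene but not the one with the highest score.

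The 11 peaks spread over much of the list in score and width. Their median base composition was near that of all peaks, and their median distance from the gene start was longer. Their median score was 16.16 (range 6.57 to 35.43) against 12.69 for all peaks, and 6 of 11 were above the median of all. Their median width was 470 bp against 556 bp, and 3 of 11 were wider than the median of all. Peaks over 1 kb made up 2 of 11 (18.2%) beside 17.8% of all peaks, and both were at *Ctnnb1*. The median GC content was 47.9% against 48.1%, with a range of 37.2 to 61.7% among the 11 peaks.

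**Figure D2:**
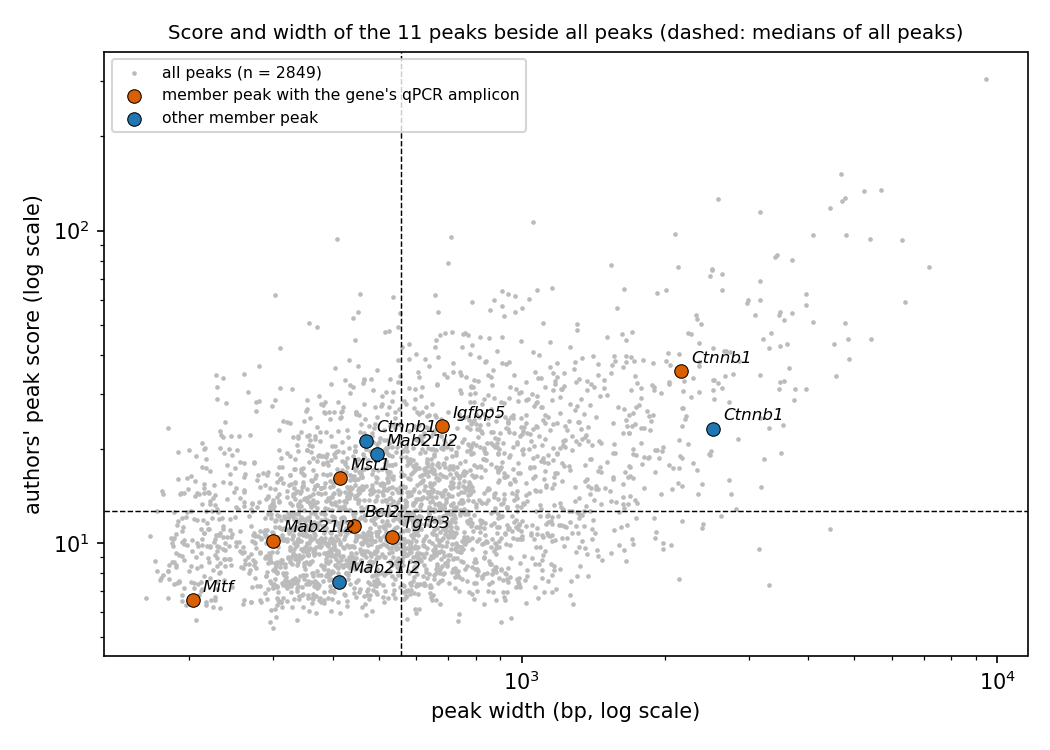
Authors' score against width (both on log scales) of all 2849 peaks (grey), of the member peaks that hold the gene's qPCR amplicon (orange) and of the other member peaks (blue). Dashed lines mark the medians of all peaks, 556 bp and 12.69, and the member peaks spread from *Mitf* at the lower left to the wide peaks of *Ctnnb1* at the right.

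The median distance from midpoint to gene start was 131 kb for the 11 peaks and 64 kb for all 5285 pairs of a gene and a peak in its domain. Of the 11 peaks, 7 (63.6%) lay over 100 kb from the start, beside 38.7% of all such pairs. Relative to the direction of the gene, 7 lay upstream and 4 downstream. This count is given without a share over all pairs, so nothing is read from it. Intergenic midpoints made up 5 of 11 (45.5%) and 49.8% of all peaks, and the other 6 lay in introns, all of them introns of other genes. For 7 of 11 peaks the gene was the nearest protein-coding gene start, again without a share over all pairs. In the domain of another gene as well lay 10 of 11, as did 85.0% of all peaks.

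The domains were long as well. The 8 domains had a median length of 422 kb against 89.9 kb for all protein-coding genes, and 7 of 8 were longer than that median. Among genes with a peak the medians were closer, at 586 kb for 7 of the 8 and 221 kb for all 3699. When all genes were split by domain length into 10 groups of equal size, the share with a peak went from 3.62% in the group with the shortest domains to 38.0% in that with the longest. *Mitf*, *Bcl2*, *Ctnnb1* and *Mab21l2* were in the latter, of which 7.77% had at least 3 peaks. *Igfbp5* and *Tgfb3* were in a group with 25.3%, *Gas6* in one with 19.3% and *Mst1* in one with 4.65%.

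**Figure D3:**
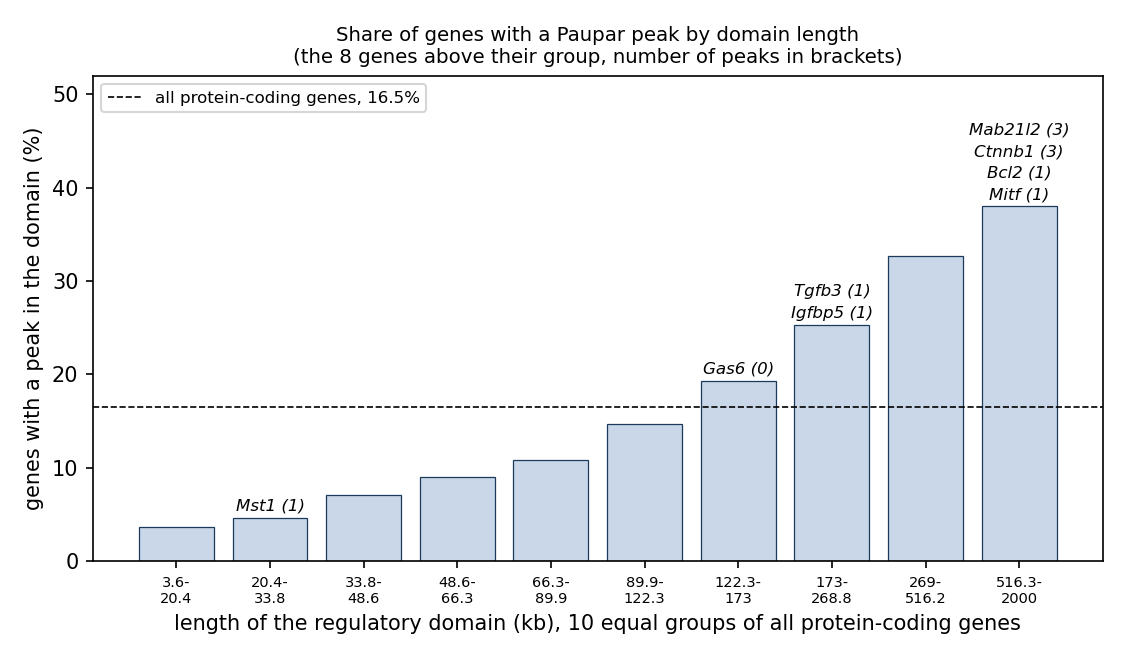
Share of protein-coding genes with at least 1 peak in the regulatory domain (y axis, %) in 10 groups of equal size by domain length (x axis, kb), with the 8 genes written above their group and their number of peaks in brackets. The dashed line marks 16.5% for all genes, and 7 of the 8 genes stand in groups above that line, *Mst1* being the exception.

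The qPCR amplicons matched the deposited peaks at all of these genes but *Gas6*. Of the 8 amplicons, of 78 to 224 bp, 7 lay wholly inside a peak of the gene's domain. For *Tgfb3* this depends on the reading of the domain, since in the other reading its domain held a different peak. For *Mst1* the amplicon centre was 10 bp from the centre of the peak, for *Mitf* 12 bp and for *Mab21l2* 34 bp. For *Bcl2* it was 85 bp, for *Igfbp5* 100 bp, for *Tgfb3* 138 bp and for *Ctnnb1* 338 bp, in a peak of 2158 bp.

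**Figure D4:**
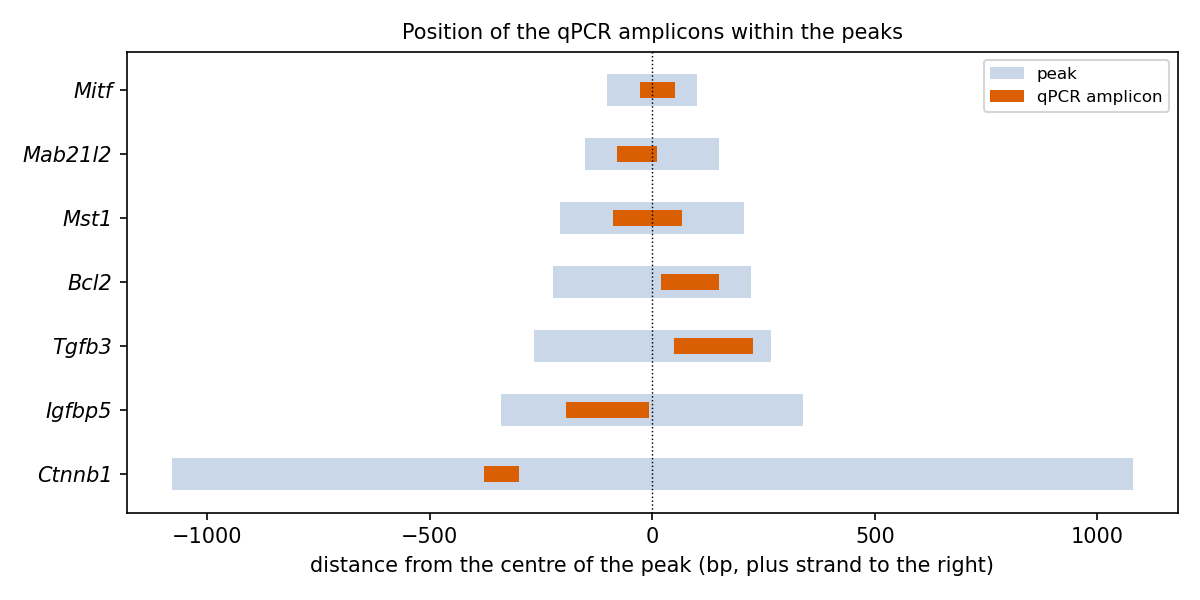
Position of 7 qPCR amplicons (orange) within the peaks that hold them (blue), in bp from the centre of the peak, with the plus strand running to the right. All 7 lie inside their peak, and those of *Bcl2*, *Tgfb3*, *Igfbp5* and *Ctnnb1* lie to one side of the centre. *Gas6* is not drawn, since its amplicon overlapped no peak.

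The *Gas6* amplicon lay in an intron of *Rasa3*, 97.8 kb upstream of the *Gas6* start and outside the *Gas6* domain, and 50.5 kb from the nearest peak, which is the one of score 36.54. The 6 other site assays that were placed, at *E2f2*, *Hes1*, *Sox2* (upstream and downstream), *Sox1* and *Pax6os1*, all overlapped a peak. The amplicons of the 2 negative control regions overlapped none, at 9.3 and 1.63 kb from the nearest peak, so the *Gas6* amplicon was farther from a peak than either of them.

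The *Mst1* amplicon covered 151 bases before the gene start and 5 bases of the first exon, so that the fragment probed at *Mst1* was promoter sequence. The *Mab21l2* amplicon held a perfect repeat of 19 bases, with copies 23 bp apart at chr3:86313678 and chr3:86313701, while the longest exact repeat in the other 7 was 5 to 9 bases. The repeated unit, on the plus strand, was as follows.
Mab21l2 repeat: AGCTACACCCCTGCATCCA

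The capture oligonucleotides can pair with genomic DNA of like sequence, and exact matches to the 4 *Paupar* oligonucleotides were therefore searched on both strands. Only 1 of the 11 peaks (9.09%), the *Ctnnb1* peak of 2158 bp, held a match of at least 10 nt, beside 24.6% of all peaks and 10.2% of flanking regions of the same size. With a minimum of 12 nt the same peak was counted beside 1.76% of all peaks, so the order of the shares depends on the minimum and nothing is read from it. Its match was 13 nt long, to the oligonucleotide PauparCHART2067, a length that 8 of all peaks (0.281%) reached. It lay at chr9:120688103-120688115, 795 bp past the end of the amplicon and 502 bp from the peak centre. The site is printed on the plus strand from chr9:120688093-120688125 and the oligonucleotide 5′ to 3′, with the matching bases in capitals, which are the reverse complement of each other.
Ctnnb1 site: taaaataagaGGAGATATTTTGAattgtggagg
PauparCHART2067: gaggcctagTCAAAATATCTCCac

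Width goes with such matches: of the 115 peaks at least as wide as this one, 47.8% held a match of at least 10 nt. In the other 10 peaks the longest match was 6 to 9 nt. None of the amplicons of the 8 genes held a match of over 8 nt. For the *LacZ* oligonucleotide, 8 of all peaks (0.281%) held a match of at least 10 nt. It is a single oligonucleotide, and the peaks were kept only if found against the *LacZ* control, so nothing is read from that share. The part of these matches in the recovery of a site was not tested.

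The *Paupar* sequence searched was that of the genome between the primers used to clone the full-length transcript, 3517 nt, whose ends may differ from those of the transcript. The longest exact match to any part of it had a median of 11 nt over the 11 peaks and of 11 nt over all peaks. The longest of the 11, of 39 nt, was in the *Ctnnb1* peak in *Ulk4* at chr9:121014909-121014947, and 97.9% of all peaks had a match no longer. It is shown because it is, after a first T, a run of alternating C and A, a low-complexity sequence found at many places in the genome, printed here on the plus strand.
Ctnnb1 downstream peak: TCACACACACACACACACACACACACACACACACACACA

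PAX6 binds DNA through a paired domain and a homeodomain. The form of the paired-domain site searched came from earlier work on these data, and its source was not checked. With at most 2 mismatches on either strand, it was in the central 200 bp of 0 of the 11 peaks, beside 9.79% of all peaks. With up to 3 mismatches the order turned, with 8 of the 11 beside 62.4% of all peaks, so nothing is read from it. A count of 0 of 11 allows a share of up to about 27.3%, taking 3 counts as the upper limit of 0. This approximation assumes a random sample of peaks, which the 11 were not. The amplicons of *Igfbp5* and *Ctnnb1* each held a stretch with 2 mismatches, outside the central 200 bp of their peaks, and the other 6 had 3 or 4 at best. Windows of the same length as the amplicon at the centre of all peaks held one in 9.37% of peaks for the length of *Igfbp5* and in 3.79% for that of *Ctnnb1*. The stretches are printed in capitals on the plus strand of chr1:73010451-73010481, where the site reads on the plus strand, and of chr9:120687230-120687259, where it reads on the minus strand.
Igfbp5 stretch: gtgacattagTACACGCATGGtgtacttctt
Ctnnb1 stretch: ccacttctcTCAAGCGTGGTctcaggacac

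The wider pathways of these genes were read from 7 lists of 100 genes in all, of which 8 are the genes described so far. Of the 100 genes, 28 (28.0%) had a peak in their domain, and of the 92 without the 8 genes 21 (22.8%) did, beside 16.5% of all genes. With extension of at most 100 kb, 16 of the 100 had one, 4 of them among the 8 genes, beside 11.9% of all genes. With domains ended by genes of any biotype, 15 of the 100 had one, 3 of them among the 8 genes, beside 11.7%. The domains of the 92 were longer as well, with a median of 164 kb against 89.9 kb, and the part of domain length in these shares was not tested. Without the 8 genes, a peak was found for 2 of 7 genes of the GAS6 and MST1 list, 5 of 17 of the TGF-beta list, 4 of 15 of the insulin-like growth factor list and 5 of 20 of the Wnt list. For the BCL2, MITF and MAB21 lists these counts were 3 of 15, 0 of 10 and 2 of 8.

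**Figure D5:**
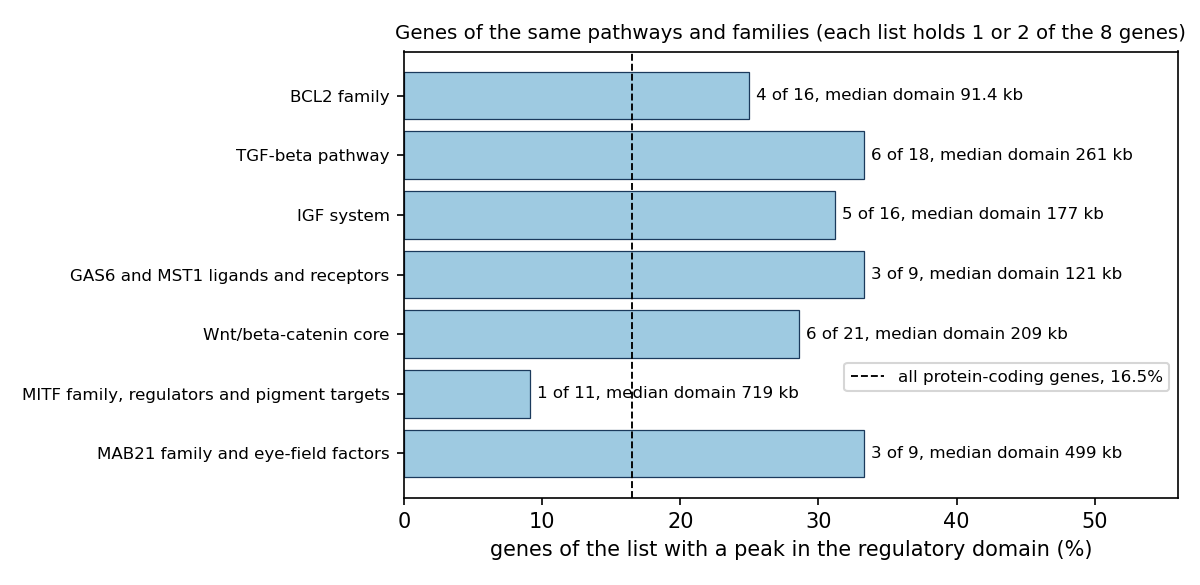
Share of the genes of each list with at least 1 peak in the regulatory domain (x axis, %), with the count and the median domain length beside each bar. The dashed line marks 16.5% for all protein-coding genes. The MITF list (9.09%) stands under it and the 6 other lists (25.0 to 33.3%) above it. Counts are of 1 to 6 genes and include 7 of the 8 genes named beside the study's CHART sites, all but *Gas6*. With extension of at most 100 kb or with domains ended by genes of any biotype, the TGF-beta list, at 2 of 18 genes, fell under the share of all genes (11.9 and 11.7%).

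Among genes for secreted ligands and their receptors, 3 of 9 in the GAS6 and MST1 list had a peak: *Mst1*, *Pros1* (protein S, the other TAM ligand) and *Tyro3*. While *Gas6* itself had none, the *Tyro3* peak lay in coding sequence 1.55 kb downstream of the gene start with a score of 10.21. *Pros1* had 2 peaks, the one with the higher score (11.62) 979 kb away. The receptor genes *Axl*, *Mertk*, *Mst1r* (RON) and *Met* and the ligand gene *Hgf* had no peak in their domains.

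In the TGF-beta pathway 6 of 18 genes had a peak (33.3%). This count was 3 with peaks of score at least 10 or with the nearest gene start only, and 2 with extension of at most 100 kb or with domains ended by genes of any biotype. The ligand genes were *Tgfb2* and *Tgfb3*, the receptor genes *Tgfbr2* (score 11.65, 981 kb upstream) and *Acvrl1* (9.85, 17.2 kb downstream), and the intracellular ones *Smad2*, a signal transducer, and *Skil*, a repressor of SMAD activity. *Smad2* had 4 peaks, of which the highest score was 23.59 at 367 kb upstream. With 10.47, *Tgfb3* was the third by score.

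In the insulin-like growth factor system 5 of 16 genes had a peak (31.2%), a count that was 3 with the nearest gene start only or with domains ended by genes of any biotype, and 2 with extension of at most 100 kb. *Irs2*, an adaptor of the insulin and IGF1 receptors, had 3 peaks, and its highest score of 64.61, 147 kb upstream, was rank 33 of the whole list. The insulin receptor gene *Insr* had a peak of score 35.31 located 128 kb downstream, in a UTR. Of the 6 binding protein genes listed, *Igfbp4* and *Igfbp5* had a peak each, with like scores of 21.68 and 23.66 but at different distances, 2.04 kb downstream in an intron and 89.1 kb upstream. *Pappa2*, a protease that cleaves IGFBP5, was the other gene with a peak.

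In the Wnt and beta-catenin list 6 of 21 genes had a peak (28.6%), and *Ctnnb1* had the highest score of them. *Gsk3b*, the kinase that marks beta-catenin for degradation, had a peak of score 26.36 in an intron 3.89 kb downstream of its start. *Tcf7l2*, a nuclear partner of beta-catenin, had 3 peaks with a highest score of 21.33, and the Wnt co-receptor gene *Lrp6* had a peak of score 19.77 located 1.02 kb downstream in an intron. *Btrc* and *Axin2*, which act in the turnover of beta-catenin, were the other genes with a peak.

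In the BCL2 family 4 of 16 genes had a peak (25.0%), or 2 with domains ended by genes of any biotype. Apart from *Bcl2* these were genes for pro-apoptotic BH3-only proteins: *Hrk* (score 25.4, 11.1 kb downstream in an intron), *Bcl2l11*, which encodes BIM (4 peaks, highest score 12.17, 82.5 kb upstream), and *Bmf* (7.18, 2.81 kb downstream in coding sequence). The other BH3-only genes of the list, *Bad*, *Bid*, *Bik*, *Pmaip1* and *Bbc3*, had none. Ordered by their highest score, *Bcl2* was the third of the 4 genes.

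In the MITF list 1 of 11 genes (9.09%), *Mitf* itself, had a peak, and none did with peaks of score at least 10 or with domains ended by genes of any biotype. Its relatives *Tfeb*, *Tfe3* and *Tfec*, its regulators *Pax3* and *Sox10* and the pigment cell genes *Tyr*, *Tyrp1*, *Dct*, *Mlana* and *Kit* had none. In the MAB21 and eye-field list 3 of 9 genes had a peak (33.3%): *Mab21l2*, *Pax6* (2 peaks, highest score 19.32, 120 kb upstream) and *Six3*, a transcription factor gene of the early eye field (3 peaks, highest score 35.39, 258 kb upstream). The highest scores of *Mab21l2* and *Pax6* were close, at 19.27 and 19.32 with ranks 680 and 678. *Mab21l1*, the paralogue of *Mab21l2*, had none.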

How the data were processed

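DNA bound by *Paupar* in N2A cells was sequenced after capture (CHART-Seq). According to the study's methods and the submitters' processing notes, the authors used Bowtie for mapping to mm9 and MACS2 for peak calling, and retained peaks found against both controls. The deposited score of each peak has no stated unit: the methods filter on −log10 q above 5, but neither the list nor the methods say that the score is this value. No column belonged to samples outside these groups. Depth is not given in the list. The Wilson interval covers counting error only and treats genes as independent, although the domains of neighbouring genes can hold the same peak.

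Peak midpoints were assigned to genes by regulatory domain on NCBIM37 (the assembly of mm9, GENCODE vM1 annotation), with neighbours in order of gene start, a reading chosen after the values were seen. Primer and oligonucleotide sequences were those of the study, and were placed by exact match on both strands, for a product of at most 1 kb. The PAX6 paired-domain site was not read from a file and was the form searched in earlier work on these data. In the gene lists, *Tfeb*, *Tfe3* and *Tfec* were matched by older symbols.

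The 8 genes, the lists and the searches were chosen with earlier results of these data known. Named are the 8 genes with every peak, their neighbours at those peaks, the listed genes with a peak (values for at most 4 a list, by score) and the amplicons. Listed genes without a peak were named and the *Mab21l2* repeat was sought after their values were seen. The steps were tested on simulated data. The tools were pysam 0.24.0, pandas 2.3.3, numpy 2.4.6, scipy 1.17.1 and matplotlib 3.10.9 in Python 3.11.15. Alternatives are given in the closing observations.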

Additional observations from a re-analysis of the deposited data

How the results depend on the processing

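The assignment of distant peaks depended on the domain rule. With peaks of score at least 10, 12.7% of all genes had a peak, and *Mitf* lost its own. With peaks given only to the nearest gene start, 9.95% of all genes had one, and 5 of the 8 genes had one, with 7 peaks in all (*Bcl2*, *Igfbp5* and *Gas6* had none). With extension limited to 100 kb, 4 of the 8 genes had a peak, with 4 peaks in all, beside 11.9% of all genes and 16 of the 100 listed genes. With domains ended by genes of any biotype, 3 genes (*Igfbp5*, *Mst1* and *Mab21l2*) had 3 peaks, beside 11.7% of all genes and 15 listed genes. With oligonucleotide matches of at least 9 nt, 4 of the 11 peaks had one (58.5% of all peaks), while with at least 12 nt 1 of the 11 (9.09%) had one beside 1.76% of all peaks, so that the order of the shares turned. With up to 3 mismatches 8 of the 11 held a PAX6 site (62.4% of all peaks), which turned the order as well, and with at most 1 mismatch 0 of the 11 did (0.667%). Assignment by any overlapping base, merging of peaks within 10 kb and, an alternative chosen after seeing the data, ending domains at any nearby interval kept 7 genes with a peak. Of 99 alternative values, 74 were kept and 25 moved, where a count was kept within 1.5 times its value, the share of all genes within its 95% Wilson interval and a distance only if identical. No paired analysis was possible because the list joins all libraries, and for the same reason no replicate could be left out. Without depth or values per library, peaks of low score such as that of *Mitf* carry no error here.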
